A study of Homo sapiens with 8 samples.

Results

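The MAGE (melanoma antigen) genes were followed in HT144, an established human melanoma cell line, on 8 bead arrays that were all on 1 chip. Members were chosen by symbol: all genes whose platform annotation symbol begins with MAGEA, MAGEB, MAGEC, MAGED, MAGEE, MAGEF or MAGEH. This gave 32 genes of the 20044 named on the array, read by 64 of its 48102 probes. Of these genes 24 are type I (13 MAGEA, 8 MAGEB and 3 MAGEC, with 47 probes) and 8 are type II (4 MAGED, 2 MAGEE, MAGEF1 and MAGEH1, with 17 probes). MAGEF1 is on chromosome 3, and the other 31 are on the X chromosome. The groups were 2 arrays of cells overexpressing SETDB1 (SETDB1 OE), 3 of cells overexpressing the mutant HC/KA-SETDB1 (HC/KA-SETDB1 OE) and 3 of cells with an empty vector. All 3 groups share the HT144 background, which is 1 line, and no source used here spells out HC/KA. No label says that replicates were separate cultures, so the p-values measure the spread between these arrays, which may be technical. In bulk RNA, fewer cells expressing a gene and less RNA per cell cannot be told apart.

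MAGE proteins share a domain, the MAGE homology domain, through which many of them bind RING-type ubiquitin ligases and steer what those ligases mark. Type I genes are cancer-testis genes: in healthy adults they are transcribed mainly in germ cells, elsewhere they are kept silent largely by promoter DNA methylation, and in melanoma and other tumours many are switched on and give antigens that T cells recognise. Type II genes are transcribed in many normal tissues. SETDB1 is an enzyme that methylates histone tails and is brought to chromatin by TRIM28, which is itself a ubiquitin ligase partner of several MAGE proteins.

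The promoters of the genes that the results turn on are shown first. Each window is a RefSeq stretch of GRCh38.p14, 250 bases before to 50 bases after a gene's start, written 5′ to 3′ on the gene's strand, with the ETS core CCGGAA (or TTCCGG, its other strand) in capitals, because ETS factors are known activators of MAGEA promoters. MAGEA3 (chrX:152698544-152698843, plus strand) and MAGEA6 (chrX:152769640-152769939, minus strand) have windows that are identical over all 300 bases, so the sequence is printed once for both. MAGEC1 lies at chrX:141903644-141903943 and MAGED1 at chrX:51802826-51803125, both on the plus strand.
MAGEA3: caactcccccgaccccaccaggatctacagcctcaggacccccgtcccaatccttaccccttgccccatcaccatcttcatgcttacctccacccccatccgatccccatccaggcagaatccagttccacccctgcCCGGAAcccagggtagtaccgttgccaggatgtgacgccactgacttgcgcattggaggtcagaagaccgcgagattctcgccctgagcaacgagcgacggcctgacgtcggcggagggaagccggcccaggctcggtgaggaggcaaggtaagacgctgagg
MAGEC1: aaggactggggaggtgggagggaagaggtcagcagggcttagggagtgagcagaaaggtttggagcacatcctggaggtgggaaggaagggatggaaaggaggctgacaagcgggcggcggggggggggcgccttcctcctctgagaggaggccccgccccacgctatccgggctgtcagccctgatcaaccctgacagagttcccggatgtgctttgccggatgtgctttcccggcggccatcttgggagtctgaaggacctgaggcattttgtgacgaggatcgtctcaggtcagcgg
MAGED1: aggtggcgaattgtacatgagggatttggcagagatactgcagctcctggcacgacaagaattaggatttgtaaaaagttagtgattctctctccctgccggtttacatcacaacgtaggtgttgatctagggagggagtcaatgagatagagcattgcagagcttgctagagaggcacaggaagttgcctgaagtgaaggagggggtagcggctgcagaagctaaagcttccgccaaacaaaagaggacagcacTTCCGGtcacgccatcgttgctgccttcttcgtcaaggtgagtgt
The MAGEA3 and MAGEA6 window held 19 CpG pairs and 1 ETS core, at position -113 from the start. The MAGED1 window held 10 CpG pairs and 1 ETS core at position 6, counting the start base as 1. The MAGEC1 window held 14 CpG pairs, no CCGGAA on either strand and 2 GC boxes (GGGCGG on either strand), whereas the windows of MAGEA3, MAGEA6 and MAGED1 held no GC box. Of the 32 genes 28 matched a window in the table, all except MAGEA1, MAGEA10, MAGEA5P and MAGEH1. The ETS core as spelled here, CCGGAA on either strand, was present in 5 of the 28 (17.9%), against 17.6% of all 27305 promoter windows. Other spellings that ETS factors can bind were not counted, so these shares do not cover all ETS sites. A GC box was present in 14 (50%), against 44.6%. The median was 11.5 CpG pairs in member windows and 14 in all windows. Among type I genes the median was 13 in the 11 measured genes with a window and 10 in the 10 that were not measured. Aligned over their windows, MAGEA12 and MAGEA2 were 89.6% identical and MAGEC1 and MAGEC2 60.1%, while MAGED1 and MAGEA3 shared 37%. Mismatches carried no penalty in the alignment, and MAGEA3 and MAGEC2 gave 36.2%, so a share near 37% is not read as similarity.

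The arrays were alike in brightness, with a median intensity of 89 to 94.4 and 44.6% to 45.7% of probes detected, that is, with a deposited detection p under 0.05. The number of arrays limits the precision. The labels were checked on SETDB1 itself, whose normalized log2 intensity was 8.0 and 7.66 on the SETDB1 OE arrays, 8.32, 8.42 and 9.0 on the HC/KA-SETDB1 OE arrays and 8.25, 8.19 and 8.04 on the empty vector arrays. The 2 arrays labelled SETDB1 OE were thus the lowest of the 8, with a log2 difference of -0.33 from empty vector (limma adjusted p = 0.692). From HC/KA-SETDB1 OE the SETDB1 difference was -0.75 (limma adjusted p = 0.107). With array weights it was -0.87 and called (limma adjusted p = 0.0474), where 8.29% of all tested genes were called. No source used here says whether the probe reads the construct, so it does not check the label, and the directions below belong to the arrays labelled SETDB1 OE. Over all tested genes, HC/KA-SETDB1 OE replicate 2 was most like empty vector replicate 3 (Pearson's r = 0.9868) and HC/KA-SETDB1 OE replicate 1 most like empty vector replicate 1 (r = 0.97), whereas r within the HC/KA-SETDB1 OE group was 0.9607 to 0.9784. Array positions on the chip followed the groups, so position and group cannot be told apart. All 8 measured markers of melanoma and pigment cells were detected on all 8 arrays. Of the other cell types' markers, CDH1, KRT5 and KRT19 of epithelial cells and CD3E of T cells were detected on no array, and EPCAM and the blood cell marker PTPRC on 1 array each. The fibroblast markers COL1A2 and LUM and the blood cell marker CD14 were detected on all 8 arrays. DCN was detected on 5 arrays, COL1A1 and COL3A1 on 4, PDGFRB and LYZ on 3 and KRT14 and VWF on 2.

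A MAGE gene was tested when at least 1 of its probes was detected on at least 2 arrays, which 19 of the 32 genes were. They comprised 13 of 24 type I genes and 6 of 8 type II genes, and 16 of them also passed with a detection p under 0.01. By subfamily, 9 of 13 MAGEA genes, 2 of 8 MAGEB, 2 of 3 MAGEC, 3 of 4 MAGED and 1 of 2 MAGEE genes were tested, together with MAGEF1 and MAGEH1. The 13 untested genes were MAGEA2B, MAGEA4, MAGEA5P, MAGEA9, MAGEB3, MAGEB4, MAGEB6, MAGEB10, MAGEB16, MAGEB18, MAGEC3, MAGED4 and MAGEE2. MAGEB10 and MAGEC3 had a probe detected on 1 array, and the other 11 genes were detected on none. Every probe that failed this filter had a raw intensity between 72.6 and 105, which is close to the arrays' medians.

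Of the 64 probes, 39 passed, 25 were detected on all 8 arrays and 19 on none. In 15 genes, 9 of type I and 6 of type II, at least 1 probe was detected on every array. MAGEA2, MAGEA8, MAGEA9B and MAGEB1 were detected on 2 to 4 arrays by their best probe, so their values lie near background. MAGEA2 and MAGEA2B, MAGEA3 and MAGEA6, MAGEA9 and MAGEA9B, and MAGED4 and MAGED4B are near-identical pairs. Probe sequences were not used here, so how a signal divides within such a pair is uncertain.

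**Figure D1:**
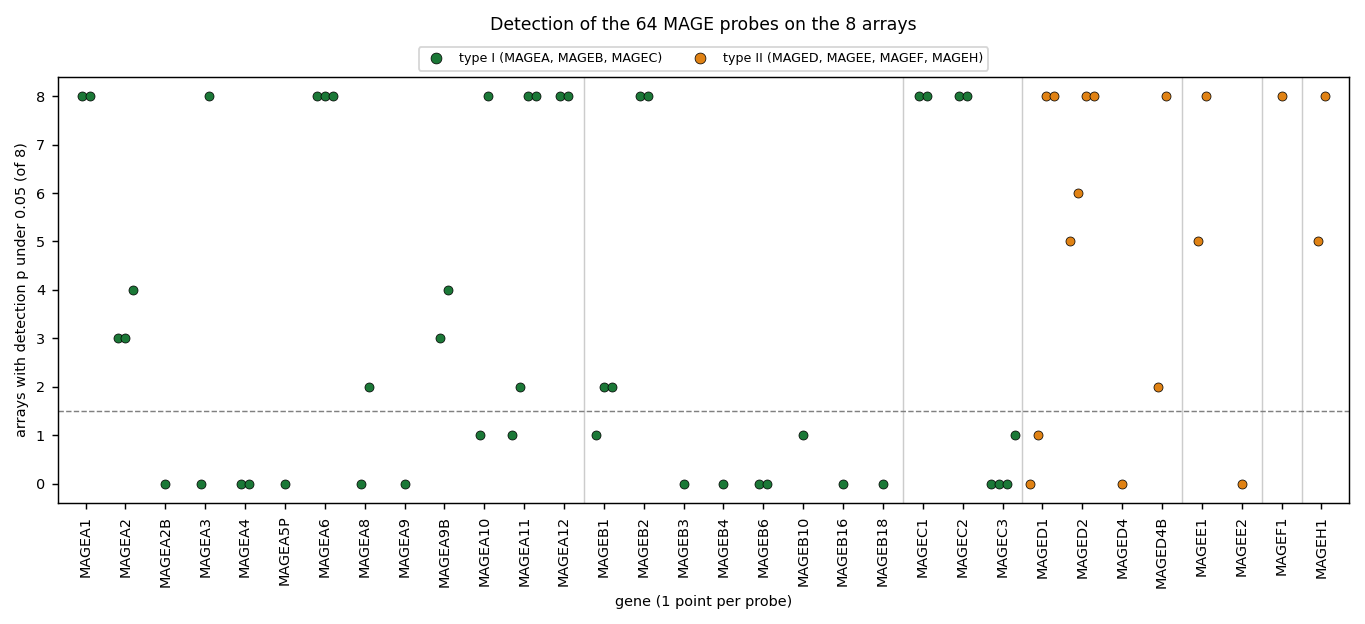
Number of arrays (of 8) on which each of the 64 MAGE probes was detected, by gene, with type I genes in green and type II genes in orange. Probes above the dashed line passed the filter. Of the 8 MAGEB genes only MAGEB1 and MAGEB2 passed, whereas 6 of the 8 type II genes had a probe on all 8 arrays.

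The called difference was that of MAGED1, a type II adaptor known as NRAGE, which binds the neurotrophin receptor NGFR and takes part in cell death signalling. It was lower on the arrays labelled SETDB1 OE than in HC/KA-SETDB1 OE cells. Its brighter probe read 1447 and 1884 raw intensity units on the SETDB1 OE arrays, 4638, 2635 and 3333 on the HC/KA-SETDB1 OE arrays and 2304, 1777 and 2212 on the empty vector arrays. After normalization the log2 values were 10.29 and 10.75 in SETDB1 OE, 12.22, 11.33 and 11.86 in HC/KA-SETDB1 OE and 11.23, 10.68 and 11 in empty vector cells. The 3 HC/KA-SETDB1 OE arrays were above all others, and the SETDB1 OE and empty vector arrays overlapped.

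MAGED1 averaged 10.52 ± 0.32 in SETDB1 OE (SD, n = 2) and 11.80 ± 0.45 in HC/KA-SETDB1 OE (SD, n = 3), a log2 difference of -1.28 (SE 0.29, 95% interval -1.92 to -0.64, 2.43-fold lower, limma adjusted p = 0.0381). It was the 1 of 19 measured MAGE genes called in this comparison, in which 4.34% of all 13974 tested genes were called (an adjusted p under 0.05). Against empty vector (10.97 ± 0.28, SD, n = 3), MAGED1 differed by 0.83 in HC/KA-SETDB1 OE (SE 0.26, limma adjusted p = 0.226) and by -0.45 in SETDB1 OE (SE 0.29, limma adjusted p = 0.632), and neither was called. A second MAGED1 probe ran in parallel, with log2 values of 8.05 and 8.50 in SETDB1 OE, 10.12, 9.38 and 9.69 in HC/KA-SETDB1 OE and 8.78, 8.55 and 8.76 in empty vector cells. Its difference in SETDB1 OE against HC/KA-SETDB1 OE was -1.46 (limma adjusted p over all probes = 0.0196), and the other 2 MAGED1 probes were detected on at most 1 array. These 2 MAGED1 probes were the 2 of 39 MAGE probes called here, against 2.72% of all 26689 probes.

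The MAGED1 call depended on single arrays. Leaving out 1 array could hardly change its direction, because every HC/KA-SETDB1 OE array was above both SETDB1 OE arrays. The adjusted p was 0.281 without SETDB1 OE replicate 1, 0.108 without SETDB1 OE replicate 2, 0.113 without HC/KA-SETDB1 OE replicate 3, and 0.0551 and 0.0596 without empty vector replicates 2 and 3. Without HC/KA-SETDB1 OE replicate 2 the difference was -1.52 (limma adjusted p = 0.0101). Several marker genes moved in the same comparison. The summed normalized intensity of the 8 melanoma and pigment cell markers was 7213 to 7739 on the SETDB1 OE arrays, 8834 to 13956 on the HC/KA-SETDB1 OE arrays and 14438 to 21655 on the empty vector arrays. That of the 6 fibroblast markers was 891 to 1691 in SETDB1 OE, 2236 to 2490 in HC/KA-SETDB1 OE and 1101 to 1842 in empty vector cells. That of the 2 measured blood markers was 57.3 to 78.2 in SETDB1 OE, 76 to 113 in HC/KA-SETDB1 OE and 59 to 70.4 in empty vector cells. Such sums weigh the brightest markers most. For the 6 fibroblast markers the median log2 difference in SETDB1 OE against HC/KA-SETDB1 OE was 0.37, opposite to their sum, so no direction is given for that set. TYR and S100B (pigment cell markers) and CD14 (a blood cell marker) were called lower in SETDB1 OE than in HC/KA-SETDB1 OE, and DCN (a fibroblast marker) was called higher. Their part in the MAGED1 result was not tested.

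**Figure D2:**
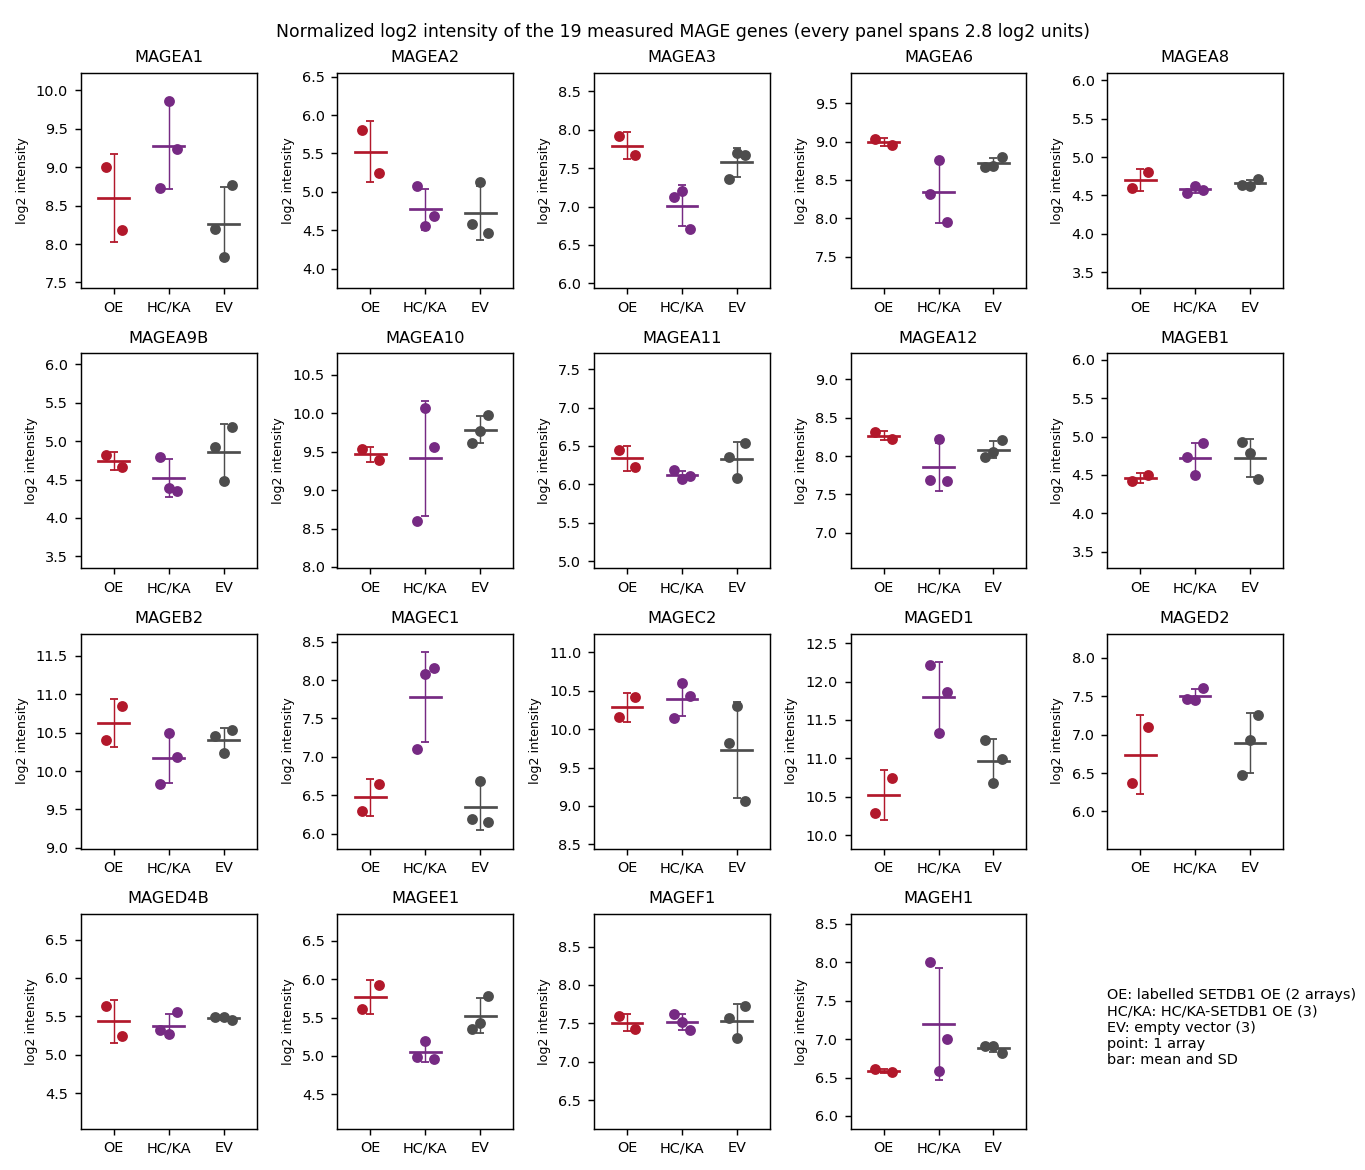
Normalized log2 intensity of the 19 measured MAGE genes on each array, with OE for SETDB1 OE, HC/KA for HC/KA-SETDB1 OE and EV for empty vector, points for arrays, and bars for mean and SD. Each panel has its own range of the same width. MAGED1 and MAGEC1 are highest on the 3 HC/KA-SETDB1 OE arrays, and MAGEA3 is lowest there.

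MAGED2, a type II gene known for its part in salt transport in the fetal kidney, had log2 values on its brightest probe of 6.37 and 7.10 in SETDB1 OE, 7.46, 7.46 and 7.61 in HC/KA-SETDB1 OE and 6.48, 6.93 and 7.26 in empty vector cells. The HC/KA-SETDB1 OE arrays stood above all others. The difference was -0.77 in SETDB1 OE against HC/KA-SETDB1 OE (limma adjusted p = 0.14) and 0.62 between HC/KA-SETDB1 OE and empty vector (limma adjusted p = 0.342). The 4 passing MAGED2 probes disagreed: HC/KA-SETDB1 OE differed from empty vector by -0.46 to 0.62 depending on the probe.

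MAGEE1, which binds dystrobrevin, gave 5.61 and 5.92 in SETDB1 OE, 4.99, 5.20 and 4.96 in HC/KA-SETDB1 OE and 5.35, 5.43 and 5.78 in empty vector cells. The HC/KA-SETDB1 OE arrays were the lowest 3. The difference was 0.71 in SETDB1 OE against HC/KA-SETDB1 OE (limma adjusted p = 0.086) and -0.47 between HC/KA-SETDB1 OE and empty vector (limma adjusted p = 0.346). A dimmer MAGEE1 probe, detected on 5 arrays, gave -0.17 and 0.26 for the same differences, opposite in sign.

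MAGEH1, another NGFR-binding protein, gave 6.61 and 6.57 in SETDB1 OE, 8.0, 6.58 and 7.0 in HC/KA-SETDB1 OE and 6.91, 6.91 and 6.82 in empty vector cells. HC/KA-SETDB1 OE replicate 1 alone was high on this probe, and the difference in SETDB1 OE against HC/KA-SETDB1 OE, -0.61, had a 95% interval of -1.36 to 0.15. A dimmer MAGEH1 probe, detected on 5 arrays, gave 4.72 and 5.30 in SETDB1 OE, 4.66, 5.50 and 5.26 in HC/KA-SETDB1 OE and 4.72, 4.68 and 4.65 in empty vector cells. HC/KA-SETDB1 OE replicate 1 was the lowest of its group on that probe, so the 2 probes disagreed. MAGEF1, which directs a ubiquitin ligase to a factor of iron-sulphur protein assembly, gave 7.59 and 7.43 in SETDB1 OE, 7.63, 7.52 and 7.42 in HC/KA-SETDB1 OE and 7.57, 7.30 and 7.73 in empty vector cells. All 3 groups overlapped, and the interval of its difference between HC/KA-SETDB1 OE and empty vector was -0.42 to 0.39. MAGED4B lay between 5.24 and 5.63 on all 8 arrays, and its differences were within -0.10 and 0.06. A dimmer MAGED4B probe, detected on 2 arrays, lay between 4.43 and 4.97 and differed by 0.31 from both HC/KA-SETDB1 OE and empty vector in SETDB1 OE (limma adjusted p over all probes = 0.436 and 0.692).

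MAGEC1, a type I antigen also known from myeloma, had the largest difference of any measured MAGE gene from empty vector, in HC/KA-SETDB1 OE. Its log2 values were 6.30 and 6.65 in SETDB1 OE, 7.10, 8.08 and 8.15 in HC/KA-SETDB1 OE and 6.19, 6.69 and 6.15 in empty vector cells. All 3 HC/KA-SETDB1 OE arrays were above the other 5, with replicate 1 the nearest to them. MAGEC1 averaged 7.78 ± 0.59 in HC/KA-SETDB1 OE and 6.34 ± 0.30 in empty vector cells (SD, n = 3 each), a log2 difference of 1.43 (SE 0.29, 95% interval 0.79 to 2.08, 2.70-fold), which missed the threshold (limma adjusted p = 0.0874). With the replicate number as a block the same difference was called (limma adjusted p = 0.0249). The call was also made without HC/KA-SETDB1 OE replicate 1 (1.78, limma adjusted p = 0.0229), and without replicate 2 the difference was 1.28 (limma adjusted p = 0.0697). Without HC/KA-SETDB1 OE replicate 3 it was 1.25 (limma adjusted p = 0.295). Leaving out empty vector replicate 1, 2 or 3 gave limma adjusted p-values of 0.271, 0.209 and 0.208.

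Between SETDB1 OE (6.47 ± 0.24, SD, n = 2) and HC/KA-SETDB1 OE, MAGEC1 differed by -1.30 (SE 0.32, limma adjusted p = 0.0504), again just outside the threshold. Leaving out HC/KA-SETDB1 OE replicate 1 made it -1.65 (limma adjusted p = 0.0085). The limma adjusted p was 0.317 without SETDB1 OE replicate 1, 0.156 without SETDB1 OE replicate 2, 0.0659 without HC/KA-SETDB1 OE replicate 2 and 0.155 without its replicate 3. Its second probe had log2 values of 5.62 and 5.91 in SETDB1 OE, 6.26, 7.84 and 8.0 in HC/KA-SETDB1 OE and 5.74, 6.13 and 6.08 in empty vector cells, so HC/KA-SETDB1 OE replicates 2 and 3 were set apart on both probes. SETDB1 OE differed from empty vector by 0.13 on the first probe (95% interval -0.59 to 0.85) and by -0.22 on the second.

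MAGEC2, an antigen of melanoma that binds TRIM28, gave 10.15 and 10.42 in SETDB1 OE, 10.15, 10.61 and 10.43 in HC/KA-SETDB1 OE and 9.82, 10.30 and 9.06 in empty vector cells. Empty vector replicate 3 was the lowest of the 8 arrays, while replicate 2 lay among those of the other groups. Differences from empty vector were 0.56 in SETDB1 OE (limma adjusted p = 0.575) and 0.67 in HC/KA-SETDB1 OE (limma adjusted p = 0.374). MAGEC1 and MAGEC2 each had 2 probes that agreed in sign in the comparison of HC/KA-SETDB1 OE with empty vector.

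**Figure D3:**
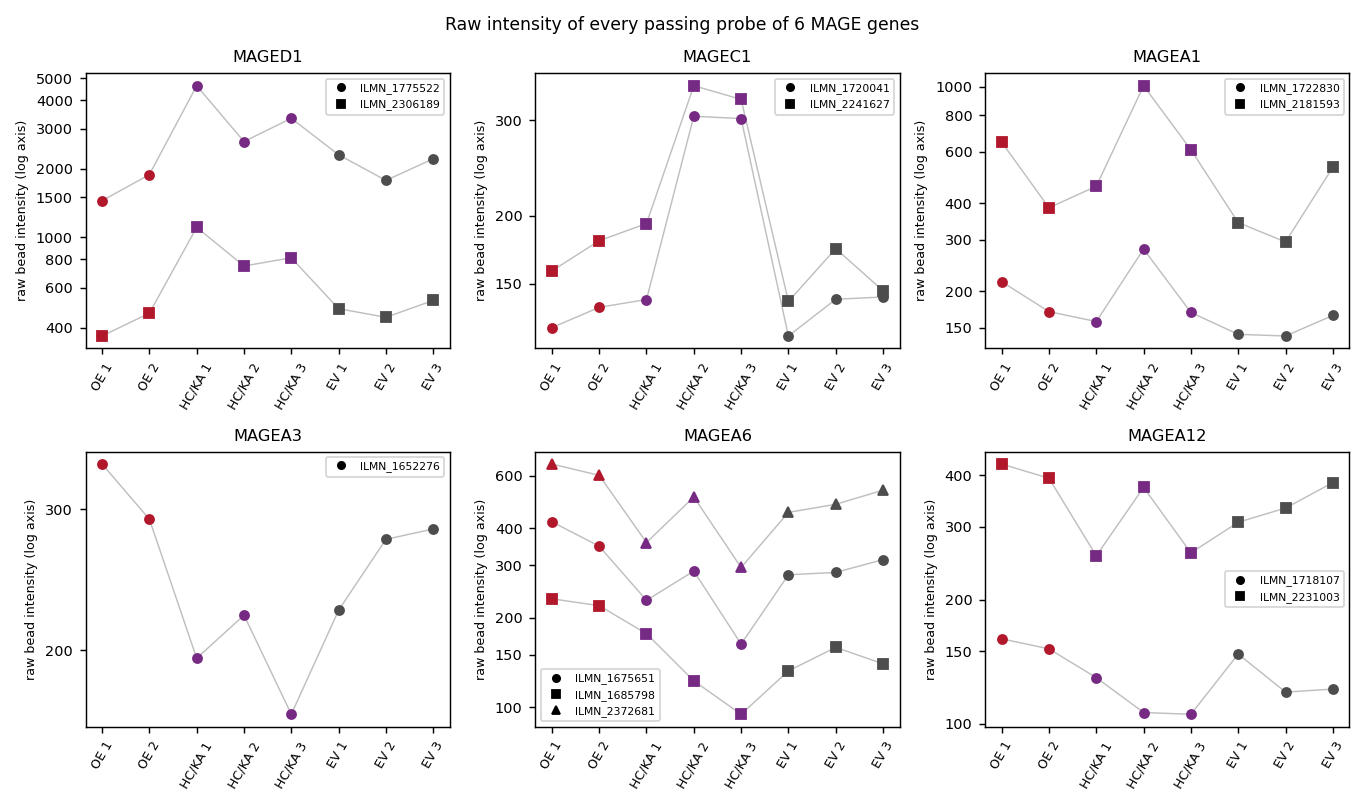
Raw bead intensity (log axis) on each array for every passing probe of MAGED1, MAGEC1, MAGEA1, MAGEA3, MAGEA6 and MAGEA12, with OE, HC/KA and EV for SETDB1 OE, HC/KA-SETDB1 OE and empty vector and 1 marker shape per probe. The MAGED1 probe of highest signal reads 1447 to 1884 in SETDB1 OE and 2635 to 4638 in HC/KA-SETDB1 OE, and both MAGEC1 probes step up on HC/KA-SETDB1 OE arrays 2 and 3.

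MAGEA3 and MAGEA6, whose proteins each form a ubiquitin ligase with TRIM28 and whose promoter windows are identical, had their highest group mean on the arrays labelled SETDB1 OE and their lowest in HC/KA-SETDB1 OE. MAGEA3 had log2 values of 7.91 and 7.67 in SETDB1 OE, 7.12, 7.21 and 6.71 in HC/KA-SETDB1 OE and 7.36, 7.69 and 7.67 in empty vector cells. The 3 HC/KA-SETDB1 OE arrays were below all others. A second MAGEA3 probe was detected on no array, so the MAGEA3 values rest on 1 probe. MAGEA3 differed by 0.78 in SETDB1 OE against HC/KA-SETDB1 OE (SE 0.22, 95% interval 0.28 to 1.28, limma adjusted p = 0.0773) and by -0.56 between HC/KA-SETDB1 OE and empty vector (SE 0.20, limma adjusted p = 0.288), and neither was called.

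MAGEA6 read 9.03 and 8.95 in SETDB1 OE, 8.32, 8.76 and 7.95 in HC/KA-SETDB1 OE and 8.67, 8.68 and 8.80 in empty vector cells on its brightest probe. SETDB1 OE was above both other groups on every array. Its difference in SETDB1 OE against HC/KA-SETDB1 OE was 0.65 (SE 0.24, limma adjusted p = 0.148), and its 3 probes gave 0.65 to 1.32. HC/KA-SETDB1 OE replicate 2 was the nearest to empty vector, and without it the difference was 0.86 and was called (limma adjusted p = 0.0394), which made 2 MAGE genes called in that comparison, where 9.83% of all tested genes were called without that array. Since MAGEA3 and MAGEA6 may read each other's transcripts, they do not count as separate observations.

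MAGEA12 gave 8.31 and 8.22 in SETDB1 OE, 7.68, 8.22 and 7.68 in HC/KA-SETDB1 OE and 7.99, 8.05 and 8.21 in empty vector cells, so HC/KA-SETDB1 OE replicates 1 and 3 were low. Relative to the empty vector means, the median over MAGEA3, MAGEA6 and MAGEA12 was 0.31 and 0.14 on the SETDB1 OE arrays, and -0.40, 0.05 and -0.77 on the HC/KA-SETDB1 OE arrays. By this median HC/KA-SETDB1 OE replicate 2 was the nearest of its group to empty vector. For MAGEA3 alone that array, at 7.21, was below every empty vector array. The set leaves out MAGEA1 and MAGEA10, and MAGEA3 and MAGEA6 in it do not count as separate observations.

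MAGEA2, which binds TRIM28 and holds back p53, gave 5.80 and 5.24 in SETDB1 OE, 5.07, 4.55 and 4.69 in HC/KA-SETDB1 OE and 4.58, 5.13 and 4.46 in empty vector cells. The SETDB1 OE arrays were above the others, though the probe was detected on 4 of 8 arrays. The difference from empty vector was 0.80 (SE 0.28, limma adjusted p = 0.313), and the other 2 probes gave 0.09 and 0.22. In the comparison of SETDB1 OE with empty vector it was the 1 of 19 measured MAGE genes with an unadjusted p under 0.05, against 10.8% of all tested genes.

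MAGEA1, the antigen for which the family is named, had differences of opposite sign to those of MAGEA3 in the comparisons with HC/KA-SETDB1 OE. It gave 9.0 and 8.19 in SETDB1 OE, 8.73, 9.86 and 9.24 in HC/KA-SETDB1 OE and 8.19, 7.83 and 8.77 in empty vector cells. HC/KA-SETDB1 OE and empty vector overlapped at 1 array each. The difference was 1.01 (SE 0.34, 95% interval 0.26 to 1.76, limma adjusted p = 0.264), and 0.71 on its second probe.

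MAGEA10 gave 9.54 and 9.40 in SETDB1 OE, 8.60, 10.07 and 9.56 in HC/KA-SETDB1 OE and 9.62, 9.77 and 9.98 in empty vector cells, with HC/KA-SETDB1 OE replicate 1 set apart below. Its difference between SETDB1 OE and empty vector, -0.32, had an interval of -1.11 to 0.47. MAGEA11, a coactivator of the androgen receptor, gave 6.45 and 6.22 in SETDB1 OE, 6.18, 6.06 and 6.10 in HC/KA-SETDB1 OE and 6.36, 6.08 and 6.53 in empty vector cells. A second MAGEA11 probe gave 6.23 and 5.79 in SETDB1 OE, 5.97, 5.20 and 5.13 in HC/KA-SETDB1 OE and 4.73, 5.15 and 5.39 in empty vector cells. The 2 probes disagreed in size between SETDB1 OE and empty vector, at 0.01 and 0.92 (limma adjusted p over all probes = 0.341 for the second).

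Of the MAGEB genes, MAGEB2, a testis protein linked to the stress response, gave 10.41 and 10.85 in SETDB1 OE, 9.84, 10.49 and 10.18 in HC/KA-SETDB1 OE and 10.45, 10.24 and 10.53 in empty vector cells, and all groups overlapped. MAGEB1, MAGEA8 and MAGEA9B lay between 4.35 and 5.18 on all 8 arrays. Each was detected on at most 4 arrays by its best probe, and no direction is given for them. For MAGEB1 the 2 passing probes had opposite signs in SETDB1 OE against empty vector, at -0.26 and 0.33.

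By type, the 13 measured type I genes had a median log2 difference from empty vector of 0.18 in SETDB1 OE, with 10 above 0, and of -0.21 in HC/KA-SETDB1 OE, with 4 above 0. Over all tested genes these medians were -0.0011 and 0.0142, with 49.9% and 51.8% above 0. Both sets of differences share the empty vector arrays. In SETDB1 OE against HC/KA-SETDB1 OE, 8 of the 9 MAGEA genes were above 0, with MAGEA1 below, while both MAGEC genes were below 0. Of all tested genes 49.3% were above 0 there. The MAGEA count was 7 of 9 without SETDB1 OE replicate 1, without HC/KA-SETDB1 OE replicate 1 and with array weights. It and the type I counts include MAGEA2, MAGEA8 and MAGEA9B, which lie near background. They also include MAGEA3 and MAGEA6, which do not count as separate observations, so no subfamily direction is drawn from them. The 6 type II genes had medians of -0.10 in SETDB1 OE and 0.15 in HC/KA-SETDB1 OE against empty vector.

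In SETDB1 OE against empty vector no MAGE gene of 19 was called, where 0.265% of all tested genes were. In HC/KA-SETDB1 OE against empty vector none was called, where 0.322% of all tested genes were, and 7 had an unadjusted p under 0.05, where 12.5% of all tested genes did. With the replicate number as a block, 1 MAGE gene (MAGEC1) was called among 127 of all tested genes, against 0 among 45 without it. These 7 were MAGEC1, MAGED1, MAGEA1, MAGED2 and MAGEC2 above, and MAGEA3 and MAGEE1 below. In SETDB1 OE against HC/KA-SETDB1 OE 7 had an unadjusted p under 0.05, against 22.1% of all tested genes. At the level of probes, none of 39 was called in either comparison with empty vector, against 0.112% of all probes in SETDB1 OE and 0.154% in HC/KA-SETDB1 OE. The 2 groups did not overlap for 5 of 19 genes in SETDB1 OE against empty vector (32% of all genes), for 5 in HC/KA-SETDB1 OE against empty vector (16.9%) and for 8 in SETDB1 OE against HC/KA-SETDB1 OE (36.9%).

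**Figure D4:**
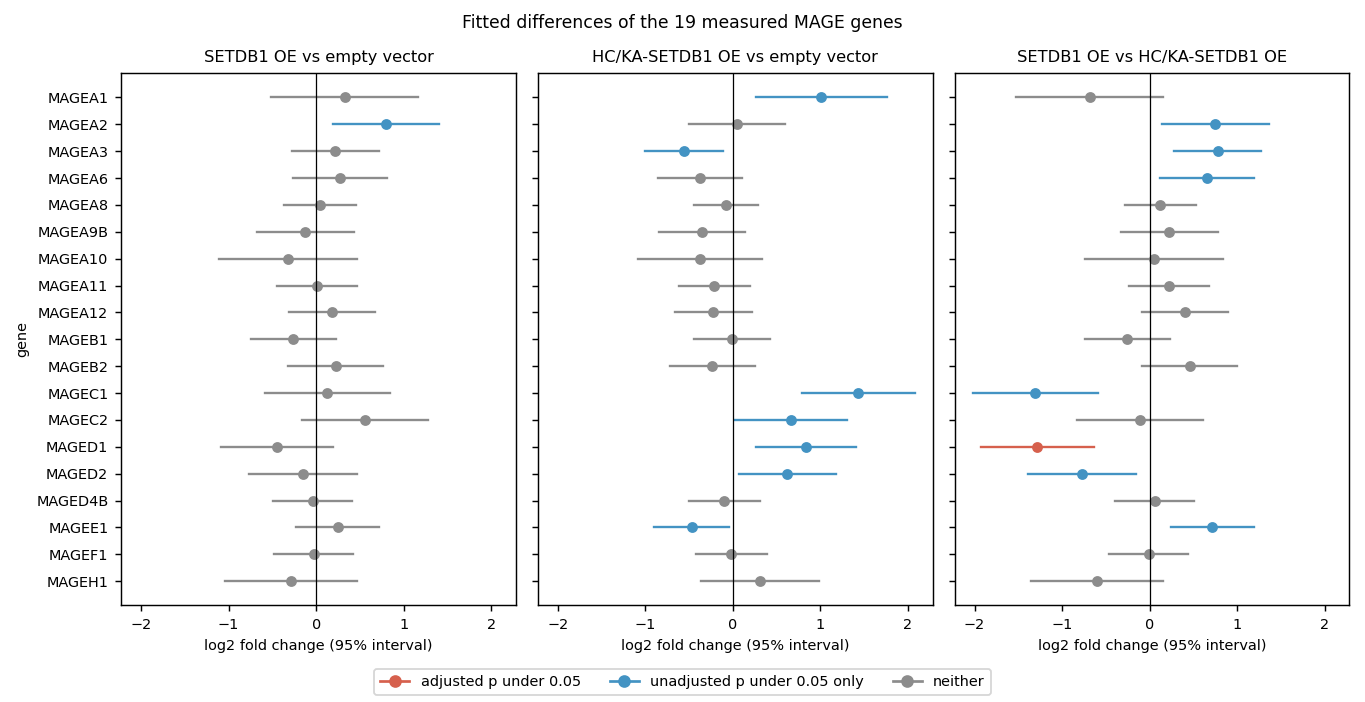
Log2 fold change (point) and 95% interval (line, not adjusted for the number of genes) of the 19 measured MAGE genes in the 3 comparisons, colored by limma p. MAGED1 in SETDB1 OE against HC/KA-SETDB1 OE is the single red point, at -1.28. MAGEC1 is farthest to the right in HC/KA-SETDB1 OE against empty vector, at 1.43.

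Beyond the family's own symbols, 4 other genes with the MAGE homology domain were measured: NDN, NSMCE3, MAGEL2 and TRO. TRO (trophinin, a cell adhesion molecule) had log2 values of 5.75 and 6.33 in SETDB1 OE, 4.93, 5.57 and 5.14 in HC/KA-SETDB1 OE and 6.57, 6.76 and 6.43 in empty vector cells. HC/KA-SETDB1 OE was below every empty vector array, with a difference of -1.38 (SE 0.23, limma adjusted p = 0.0411). The call was lost without any 1 empty vector array (limma adjusted p = 0.178, 0.218 and 0.102 without replicates 1, 2 and 3) and without HC/KA-SETDB1 OE replicate 1 (0.0668) or 3 (0.152). NDN (necdin, which restrains growth in neurons) differed by -0.89 in HC/KA-SETDB1 OE against empty vector (limma adjusted p = 0.192), and NSMCE3 and MAGEL2 had no unadjusted p under 0.05 in any comparison.

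Of 15 listed ligase partners and substrates of MAGE proteins 11 were measured and none was called in any comparison. NGFR, to which MAGED1 binds, differed on the log2 scale by 1.62 in SETDB1 OE against HC/KA-SETDB1 OE (limma adjusted p = 0.119) and by 1.67 against empty vector cells (limma adjusted p = 0.284). NGFR was called without HC/KA-SETDB1 OE replicate 2, at 2.14 (limma adjusted p = 0.0185), where 9.83% of all tested genes were called. In SETDB1 OE against HC/KA-SETDB1 OE, 5 of the 11 had an unadjusted p under 0.05, against 22.1% of all tested genes. The other 4 were SKP2 at 0.61, DLX5 at -0.50, TRIM27 at 0.66 and PJA1 at 0.51 (limma adjusted p = 0.113, 0.147, 0.216 and 0.225). SKP2, a substrate receptor of a ubiquitin ligase, differed by -0.57 between HC/KA-SETDB1 OE and empty vector (limma adjusted p = 0.235). TRIM28 had no unadjusted p under 0.05 in any comparison. Of 26 listed regulators of cancer-testis genes, mostly chromatin and DNA methylation factors, 22 were measured and none was called. Among the 22, 4 had an unadjusted p under 0.05 in SETDB1 OE against HC/KA-SETDB1 OE, against 22.1% of all tested genes, so the 4 do not set the list apart. UHRF1, which maintains DNA methylation, differed by 1.33 in SETDB1 OE against HC/KA-SETDB1 OE (limma adjusted p = 0.148), and ETS1, one of the ETS factors, by -0.50 (limma adjusted p = 0.223). SP1, which binds GC boxes, differed by -0.75 (limma adjusted p = 0.079) and CTCF, an insulator protein, by 0.74 (limma adjusted p = 0.108). Without HC/KA-SETDB1 OE replicate 2, UHRF1 (1.87), SP1 (-0.87) and CBX1 (limma adjusted p = 0.0205) were called, and with array weights SP1 (-0.82) and CTCF (0.85). Of all tested genes 9.83% were called without that array and 8.29% with array weights. Against empty vector, the receptor KIT differed by -0.54 in SETDB1 OE (limma adjusted p = 0.317). In HC/KA-SETDB1 OE it differed by -0.43 (limma adjusted p = 0.325). KIT was detected on only 2 arrays, so its values lie near background and no direction is given for it. MBD1, which binds methylated DNA, differed from empty vector by 0.71 in SETDB1 OE (limma adjusted p = 0.389). CTCFL, a testis factor known to act on MAGEA promoters, was detected on no array.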

How the data were processed

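Transcripts of 8 HT144 samples were measured on Illumina bead arrays. Per the file headers, the authors deposited linear bead intensities that were not normalized, each with a detection p-value, whose computation no source used here describes. A further deposited table holds processed log2 values. Each column of it had a median of 6.53 and correlated at 0.9996 or more with the log2 intensity of its own array, so scale, centring and direction were settled from the values, and it served as an alternative. Per the labels' protocols, RNA was extracted with Trizol, column-cleaned with DNase treatment and labelled as biotinylated cRNA.

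Of 48107 probes, 5 with a missing cell were left out. The platform annotation gave 1 symbol to 30110 probes, several to 8, and lacked the remaining 17984. Symbols were updated through RefSeq genes of GRCh38.p14, which held 30071 of the listed probes. Intensities were background-corrected and quantile-normalized with neqc (offset 16) in limma 3.58.1 under R 4.3.3. Probes detected on at least 2 arrays were kept (26689), and the passing probe with the highest mean stood for its gene (13974 genes).

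Groups were compared with lmFit, contrasts.fit and eBayes on all 8 arrays, 2-sided, with Benjamini-Hochberg adjustment over all tested genes or probes. The fit was also run on simulated data with independent normal errors and no array effects, which does not test how it handles such effects here. All members were named, as were SETDB1 and some cell type markers. Other listed genes were named only when called or at an unadjusted p under 0.05. The exceptions were TRIM28, MAGEL2, NSMCE3, CTCFL and CBX1, chosen after their values were seen. Members and lists were chosen with earlier results of these data known. For same-numbered arrays of HC/KA-SETDB1 OE and empty vector, deviations from the group means correlated at 0.459, 0.189 and 0.145. The other pairs of groups share only 2 numbers each, with correlations of 0.031 to 0.147. No label says that the numbers pair samples, so the main fit had no block and the replicate block was an alternative. Promoter windows were aligned with Biopython 1.88, and plots drawn with matplotlib 3.10.9 under Python 3.11.15. The alternatives, 19 in number, covered normalization, background, filters, probe choice, samples, weights, variance prior, the replicate block and leaving out each array.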

Additional observations from a re-analysis of the deposited data

How the results depend on the processing

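In SETDB1 OE against empty vector, 0 MAGE genes were called under all 19 alternatives. In HC/KA-SETDB1 OE against empty vector the count was 0, and it was 1 (MAGEC1) with array weights (0.687% of all tested genes called) and with the replicate block (0.909%), with a range of 0 to 1 when each array was left out in turn. In SETDB1 OE against HC/KA-SETDB1 OE the count of 1 (4.34% of all tested genes called) became 0 with an offset of 50 (3.37%), with no filter (1.37%) and with only the 2 groups in the fit (1.2%), 2 with the stricter detection filter of p under 0.01 on 3 arrays (5.35%), with trend and robust variances (4.93%) and with the replicate block (4.76%), and 3 with array weights (8.29%), with a range of 0 to 2 over arrays left out. In that comparison 606 of all genes were called as fitted, 41 without SETDB1 OE replicate 1, 68 without SETDB1 OE replicate 2 and 1343 without HC/KA-SETDB1 OE replicate 2. Against empty vector, the count of all called genes was 37 as fitted and 10 to 155 under the alternatives in SETDB1 OE, and 45 as fitted and 2 to 262 in HC/KA-SETDB1 OE. Called probes in SETDB1 OE against HC/KA-SETDB1 OE numbered 2 as fitted (2.72% of all probes called), 1 on the deposited log2 values (2.27%), 5 with array weights (4.91%) and 4 with the replicate block (3.35%), and in HC/KA-SETDB1 OE against empty vector 0 as fitted (0.154%), and 1 with array weights (0.266%) or the replicate block (0.603%). MAGED1 in SETDB1 OE against HC/KA-SETDB1 OE was called under 11 of 19 alternatives, with log2 differences of -1.52 to -1.06. Its adjusted p was 0.0528 with an offset of 50, 0.0747 with no filter and 0.0891 with only the 2 groups. MAGEC1 in HC/KA-SETDB1 OE against empty vector ranged over 0.93 to 1.78. TRO was called under 10 of 19, with an adjusted p of 0.113 on the deposited log2 values, 0.0968 with an offset of 50, 0.105 with no background correction and 0.112 with no filter. No called value changed sign. Of the 56 MAGE gene differences that were not called, 22 had the other sign under at least 1 alternative. Type I medians kept their sign under all 19, at 0.14 to 0.23 in SETDB1 OE and -0.24 to -0.04 in HC/KA-SETDB1 OE against empty vector, while the type II median in HC/KA-SETDB1 OE ranged over -0.07 to 0.30. The cause was not tested. With a detection p under 0.01, 16 MAGE genes were measured. The replicate block changed the call of MAGEC1 and no other MAGE call. Its limma adjusted p became 0.0249 in HC/KA-SETDB1 OE against empty vector and 0.0305 in SETDB1 OE against HC/KA-SETDB1 OE. In both comparisons no label says that samples share more than a number. Genes near background are limited by signal: MAGEA2, MAGEA8, MAGEA9B and MAGEB1 were detected on at most 4 arrays.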
